A study of Mus musculus with 2 samples.

Results

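Neutrophils carry antibacterial proteases and a peroxidase in primary, or azurophil, granules. In Brd9 knockout and control fetal liver progenitors, 10 genes of that programme were followed here. The genes were Mpo, Elane, Prtn3, Ctsg, Ms4a3, Ctsc, Srgn, Nkg7, Serpinb1a and Calr, taken by symbol from the 32285 genes listed for both libraries, and all 10 were found. Primary granules form first in neutrophil development, at the promyelocyte stage, and their contents are made in a short window before the later secondary and tertiary granules. Myeloperoxidase makes hypochlorous acid from hydrogen peroxide, and the serine proteases neutrophil elastase, proteinase 3 and cathepsin G break down proteins of engulfed bacteria. The proteases are made as inactive forms, cut by cathepsin C and stored bound to the proteoglycan serglycin.

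Cells were sorted from E14.5 fetal liver of C57BL/6 mice as lineage-negative and c-Kit-positive, a gate of blood stem and progenitor cells, and profiled by droplet sequencing of the 3' end of RNA. The knockout library came from CD45.2(+) Vav1-iCre Brd9fl/fl embryos, in which Vav1 control sequences drive the recombinase in blood cells. The control library came from CD45.2(+) Brd9fl/fl embryos, so both groups carried floxed Brd9. Brd9 encodes a bromodomain subunit of non-canonical BAF, a chromatin remodelling complex. Neither group had the recombinase with intact Brd9, so an effect of the recombinase cannot be told apart from that of Brd9 loss. How many embryos were pooled is not stated in the labels. With 1 library per group there was no test, and every interval below covers counting error only, not the spread between embryos.

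Filters kept 6757 knockout cells, at a median of 36007 UMIs each, and 6860 control cells, at 38485.5 UMIs each. A UMI is 1 counted RNA molecule. Brd9 itself was at 7.06 CPM in knockout and 27.2 CPM in control cells (CPM, UMIs scaled to a fixed library total; log2 ratio -1.95, 95% interval -2.02 to -1.87). The libraries differed in embryo sex: 58.9% of knockout and 23.0% of control cells were female by Xist. They shared 16 cell barcodes. Alb, a liver gene that blood cells should lack, was at 3.09 CPM in knockout and 7.66 CPM in control cells, with 48.9% of its knockout UMIs and 33.9% of its control UMIs in 1 cell.

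The promoters of the peroxidase and of the 3 serine proteases are shown because these 4 genes define the granule and because Elane and Prtn3, which lie beside each other, differed in size of change. Sequences are from RefSeq (GRCm38.p6), 5′ to 3′ on the strand of the gene. Each begins 250 bases before the RefSeq start and ends at that start or at the first annotated exon before it. Elane is from chr10:79886062-79886246 and Prtn3 from chr10:79879417-79879613, both on the plus strand. Mpo is from chr11:87793534-87793580 on the plus strand, and Ctsg from chr14:56102575-56102824 on the minus strand. Capitals mark motif matches on either strand.
Elane: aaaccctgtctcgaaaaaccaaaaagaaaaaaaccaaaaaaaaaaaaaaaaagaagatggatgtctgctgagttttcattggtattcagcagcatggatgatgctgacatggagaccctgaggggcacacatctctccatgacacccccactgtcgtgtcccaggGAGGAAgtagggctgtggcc
Prtn3: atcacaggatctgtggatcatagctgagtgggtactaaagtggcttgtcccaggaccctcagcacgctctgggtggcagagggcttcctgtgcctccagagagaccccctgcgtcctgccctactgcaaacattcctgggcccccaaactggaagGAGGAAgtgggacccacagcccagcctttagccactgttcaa
Mpo: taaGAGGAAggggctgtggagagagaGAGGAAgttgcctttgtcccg
Ctsg: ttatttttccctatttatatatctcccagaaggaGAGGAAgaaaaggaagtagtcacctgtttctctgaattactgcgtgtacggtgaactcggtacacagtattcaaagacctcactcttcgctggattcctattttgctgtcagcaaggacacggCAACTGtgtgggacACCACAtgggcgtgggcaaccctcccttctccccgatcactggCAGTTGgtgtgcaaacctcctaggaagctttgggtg

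Of the 10 genes, 9 matched the RefSeq promoter table, and Serpinb1a did not. Both strands of the 250 bases before the start were searched for short motifs of factors known from myeloid and erythroid cells. The PU.1 motif was GAGGAA. For factors of the C/EBP family the letters were TTGCNNAA. The motif searched for the RUNX family was TGTGGT. The letters taken for MYB, a factor of early progenitors, were CAACTG. The repressor GFI1 was represented by AATCACNGC. For the erythroid GATA factors the search used AGATAA. The PU.1 motif was found in 5 of the 9, Ctsc among them. It lay before Elane, Prtn3, Mpo and Ctsg, starting 85, 95, 247 and 216 bases before the start, with another in Mpo at 224. Of all 32851 promoters, 23.3% held it. Ctsg also held the MYB motif at 93 and 36 bases, found in 11.1% of promoters, and the RUNX motif at 79 bases, found in 14.05%. Over all promoters 9.56% held the C/EBP, 0.776% the GFI1 and 9.988% the GATA motif. The Elane, Prtn3 and Mpo windows held none of the other motifs searched. A match describes letters only and shows no binding.

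Over all cells, 9 of the 10 genes reached 20 CPM in either library, and all 9 were lower in the knockout. By more than 0.5 on the log2 scale, 6 of the 9 were lower, where 0.899% of 6226 genes with the same minimum were lower and 0.418% higher by that much. The median log2 ratio of the 9 was -0.89, against 0.03 over all 6226 genes. The median was -0.37, with 1 of the 9 lower beyond 0.5, once knockout cell classes were weighted to their control shares, and -0.52 without the neutrophil-like cluster described below. In bulk sums such as these, fewer cells of a type and less RNA per cell cannot be told apart.

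Elane, neutrophil elastase, stood lowest, at 24.9 CPM in knockout and 105 CPM in control cells (log2 ratio -2.08, -2.12 to -2.04). Prtn3, proteinase 3, was at 205 CPM in knockout and 381 CPM in control cells (-0.89), and Ctsg, cathepsin G, at 70.7 CPM in knockout and 150 CPM in control cells (-1.09). Mpo, myeloperoxidase, was at 237 CPM in knockout and 438 CPM in control cells (-0.88). The difference was larger for Elane than for Prtn3, its neighbour 3073 bases upstream, by over 1 log2 unit.

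Ms4a3, a membrane protein of granulocyte-monocyte progenitors, was at 23.4 CPM in knockout and 52.0 CPM in control cells (-1.15). Serpinb1a, an inhibitor of neutrophil serine proteases kept in the cytosol, was at 28.9 CPM in knockout and 59.1 CPM in control cells (-1.04). Srgn, serglycin, was at 171 CPM in knockout and 233 CPM in control cells (-0.45). Srgn was found in 85.2% of knockout and 86.5% of control cells, far more widely than the proteases. Differences were smaller still for Ctsc, the protease that activates the others, at 27.5 CPM in knockout and 31.4 CPM in control cells (-0.19). Calr, calreticulin, an endoplasmic reticulum chaperone needed for myeloperoxidase folding, was at 657 CPM in knockout and 743 CPM in control cells (-0.18). Nkg7, a granule membrane protein of killer cells, was at 13.7 CPM in knockout and 19.4 CPM in control cells, under the minimum (-0.51).

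**Figure D1:**
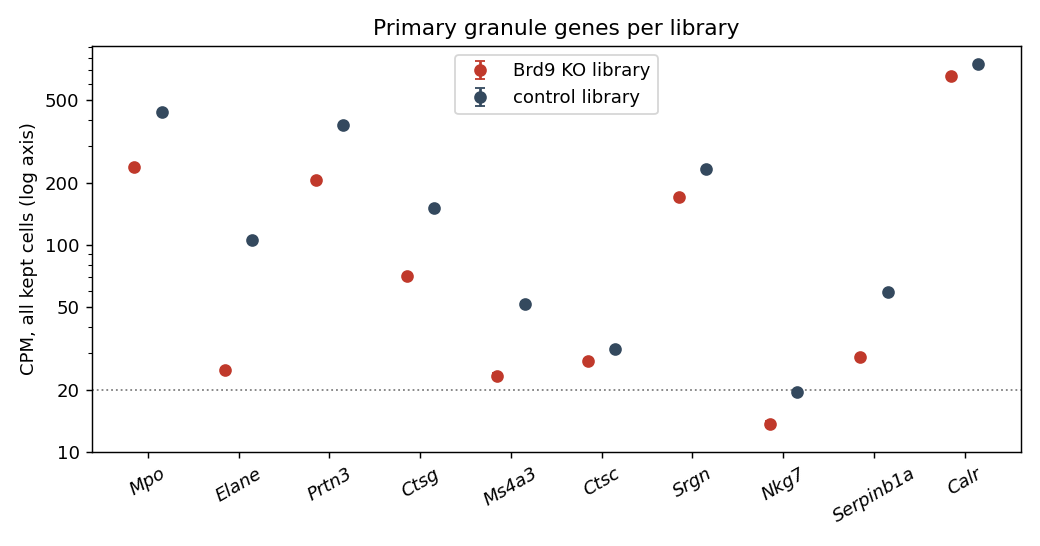
Level of each gene over all kept cells, in CPM on a log axis, for the Brd9 KO library (red, left) and the control library (blue, right), with exact Poisson 95% intervals that are mostly smaller than the points. The dotted line is the 20 CPM minimum, and the gap is widest for Elane, at 24.9 CPM in knockout and 105 CPM in control cells.

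The genes were unevenly spread over cells. The richest 60 knockout and 105 control cells held 50% of the Elane UMIs of their library, while for Calr it took 1613 knockout and 1556 control cells. Cells with at least 1 Elane UMI made up 7.95% of the knockout and 17.7% of the control library, and those with an Mpo UMI 32.3% of the knockout and 47.8% of the control library. Such shares include free RNA taken up by droplets, so classes of cells were compared next.

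Cells were clustered without the 10 genes or other granule genes, and clusters were named from markers as being like a cell type. A granulocyte-monocyte class, formed after the clusters were seen, joined a GMP-like cluster (granulocyte-monocyte progenitor) of 389 knockout and 421 control cells and a neutrophil-like cluster of 110 knockout and 281 control cells. It held 7.38% of knockout cells (exact 95% interval 6.77 to 8.03) and 10.2% of control cells (9.53 to 10.97). Of the top 10 genes of the GMP-like cluster, 1 (Cebpa) was a GMP marker and 1 (Cpa3) a mast-basophil marker. The neutrophil-like cluster, led by S100a9 and S100a8, was 1.63% of knockout and 4.10% of control cells. These shares moved with embryo sex. In female cells the joined class was 6.93% of the knockout and 7.17% of the control library, and in male cells 8.15% of the knockout and 11.2% of the control. The neutrophil-like cluster was 1.23% of female knockout and 1.90% of female control cells, and 2.25% of male knockout and 4.83% of male control cells. Between female and male control cells alone, its share thus differed as much as between the libraries. Of all Elane UMIs, it held 46.0% for the knockout and 74.7% for the control. The 11 neutrophil markers in the files summed to 36943 CPM in knockout and 29676 CPM in control cells of that cluster, with 4 of the 11 lower and 7 higher in the knockout.

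In the joined class, 9 of the 10 genes reached 50 CPM in either library, and 8 of the 9 were lower in the knockout by more than 0.5, where 1.71% of 3573 genes were. Their median log2 ratio was -0.76, against 0.04 over all 3573 genes. The class was a different mix in each library, and weighting knockout cells to the control mix of the clusters gave a median of -0.43 and 3 of 9 beyond 0.5. Within the GMP-like cluster alone the median was -0.34, and 2 of 9 genes were lower by more than 0.5, where 0.837% of 3586 genes were. Those were Serpinb1a, at 215 CPM in knockout and 345 CPM in control cells (-0.68), and Elane, at 169 CPM in knockout and 259 CPM in control cells (-0.62). Monocyte-dendritic markers summed to 123 CPM in knockout and 276 CPM in control GMP-like cells, with 10 of 12 lower and Siglech at 0. Eosinophil markers summed to 8.04 CPM in knockout and 31.5 CPM in control GMP-like cells, with 4 of 6 lower and Ear1 and Ear6 at 0. Mast-basophil markers summed to 452 CPM in knockout and 319 CPM in control GMP-like cells, with 5 of 10 higher and 2 lower. Of these, Fcer1a, Cma1 and Tpsb2 were at 0. HSC/MPP markers summed to 456 CPM in knockout and 387 CPM in control GMP-like cells, with 5 of 10 higher. Their part in the result was not tested.

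The neutrophil-like cluster showed the largest differences in Elane, Nkg7 and Srgn. There all 10 genes were measured and 6 were lower in the knockout by more than 0.5, where 1.85% of 3466 genes were, with a median of -0.56. Elane was at 1008 CPM in knockout and 2880 CPM in control cells (-1.51, -1.57 to -1.46). Nkg7 was at 117 CPM in knockout and 289 CPM in control cells (-1.31, -1.48 to -1.14), and Srgn at 1256 CPM in knockout and 2287 CPM in control cells (-0.86). Ctsc was the 1 gene not lower, at 55.4 CPM in knockout and 47.3 CPM in control cells, with an interval that spans no change (0.23, -0.05 to 0.50).

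This cluster was 44.5% female in the knockout and 10.7% in the control, and most differences were smaller in female cells, Mpo and Calr excepted. The median over the 10 genes was -0.31 in female cells (49 knockout, 30 control) and -0.50 in male cells (58 knockout, 250 control). Elane was at 1099 CPM in knockout and 1969 CPM in control female cells (-0.84), and at 1010 CPM in knockout and 3009 CPM in control male cells (-1.57). In female cells Nkg7 (-0.97), Mpo (-0.56) and Srgn (-0.52) were also lower by more than 0.5. Prtn3 was at -0.14 there, Serpinb1a at -0.04 and Ms4a3 at 0.08, the last pair with intervals that span 0. Erythroid markers summed to 595 CPM in knockout and 302 CPM in control cells of the cluster, with 16 of 20 higher, and eosinophil markers to 543 CPM in knockout and 341 CPM in control cells, with 5 of 6 higher. Monocyte-dendritic markers summed to 96.0 CPM in knockout and 266 CPM in control cells, with 9 of 12 lower and Siglech and Cd74 at 0. Their part in the result was not tested.

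**Figure D2:**
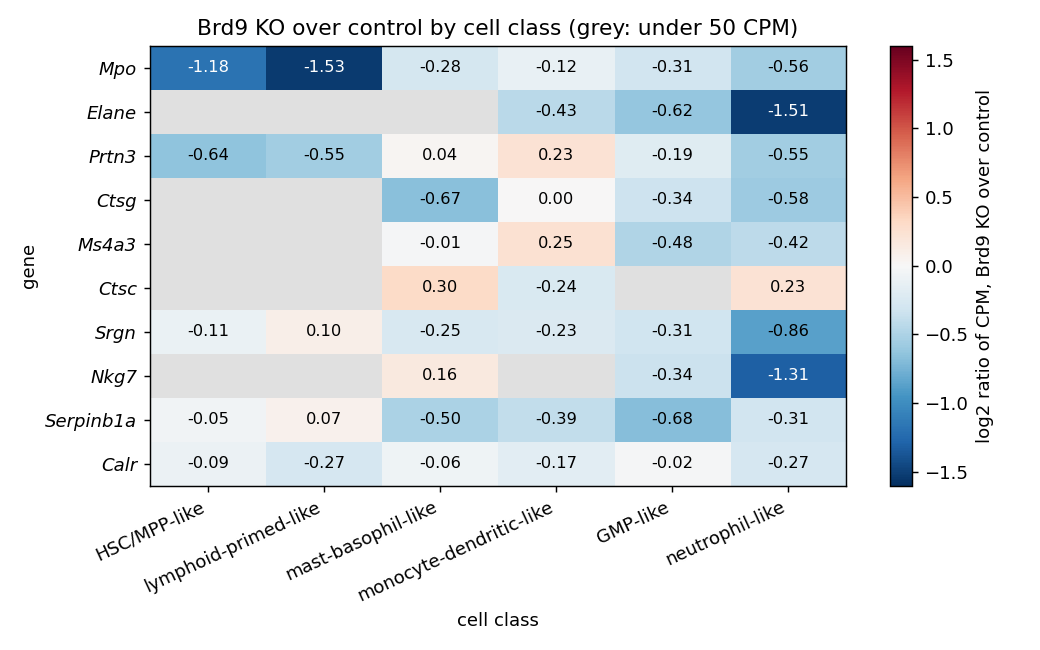
Log2 ratio of CPM, Brd9 KO over control, for each gene (down) in 6 cell classes (across). Blue is lower and red higher in the knockout, and grey marks genes under 50 CPM in both libraries. The lowest values are Mpo in the lymphoid-primed-like class (-1.53), Elane in the neutrophil-like cluster (-1.51) and Nkg7 there (-1.31).

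Whether fewer cells used a gene or each cell held less of it was asked after thinning every cell to 18526 UMIs, which left out 18 of 110 knockout and 38 of 281 control neutrophil-like cells as shallower. Elane was then found in 95.7% of knockout and 99.2% of control cells, and before thinning in 89.1% of knockout and 97.9% of control cells. The level in positive cells was 21.5 ± 17.5 UMIs for knockout and 56.5 ± 40.7 UMIs for control cells (mean ± SD over cells, 1 library each). Among thinned cells the share was close to complete in both libraries, and the difference lay mainly in the level. The shares before thinning, which include the shallower cells, lay further apart. Srgn was found in all 92 knockout and 243 control cells left, though 1 control cell lacked it in a second random draw, at 24.97 ± 14.55 UMIs in knockout and 44.2 ± 17.7 UMIs in control cells. Nkg7 differed in both measures, with 67.4% of knockout and 93.8% of control cells positive. Its level was 3.34 UMIs in knockout and 6.07 UMIs in control positive cells. In the second draw, split by sex, Elane averaged 21.2 UMIs in 41 knockout and 37.2 UMIs in 25 control female cells, and 20.3 UMIs in 48 knockout and 57.8 UMIs in 217 control male cells.

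**Figure D3:**
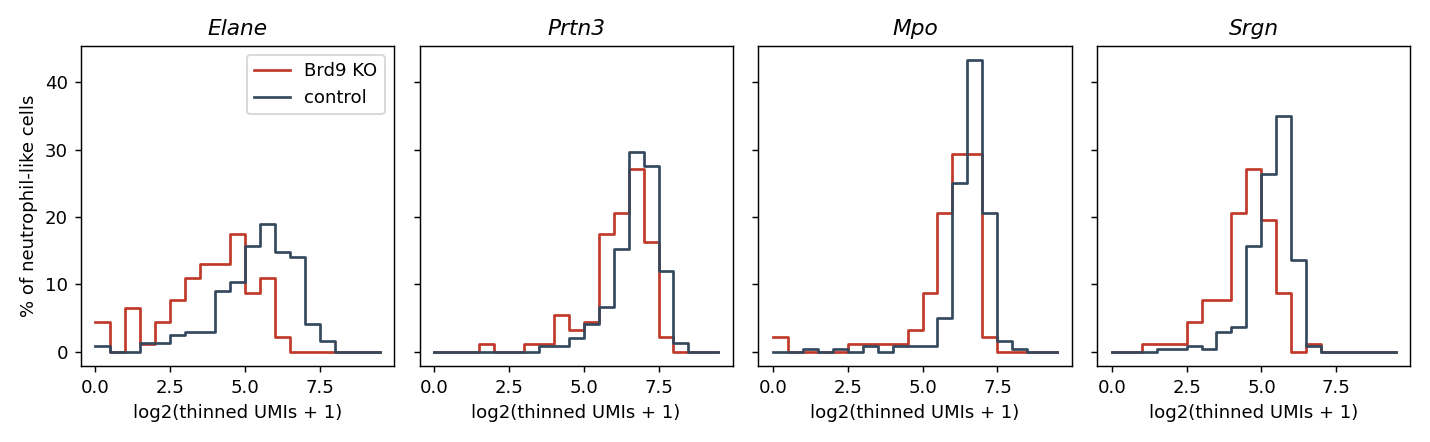
Share of neutrophil-like cells (percent) by thinned UMIs of Elane, Prtn3, Mpo and Srgn on a log2 scale, Brd9 KO in red and control in blue. The knockout curves lie left of the control curves, most for Elane, with means of 21.5 UMIs in knockout and 56.5 UMIs in control positive cells.

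In GMP-like cells the shares moved more than the levels for Ctsg, which was found in 71.8% of knockout and 83.9% of control cells. Positive cells held 17.4 Ctsg UMIs in knockout and 18.7 in control cells. Elane was found in 46.0% of knockout and 54.5% of control cells, at 6.49 UMIs in knockout and 8.05 UMIs in control positive cells. As a measure of free RNA, the erythroid-like class, which should lack these genes, had Elane in 0.641% of knockout and 3.60% of control cells and Mpo in 9.10% of knockout and 16.1% of control cells. The median depth was 35538 UMIs in knockout and 39046 UMIs in control erythroid-like cells. In GMP-like cells it was 30011 UMIs for knockout and 32614 UMIs for control cells. The shares in GMP-like cells were far above this background, which was itself lower in the knockout.

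Cells with several of the genes at once were counted next. Of 6 genes (Mpo, Elane, Prtn3, Ctsg, Ms4a3 and Nkg7), all 6 had at least 5 thinned UMIs in 11.96% of knockout and 52.7% of control neutrophil-like cells. Nkg7 sits at this threshold, and it alone reached 5 UMIs in 14.1% of knockout and 56.4% of control cells. Exactly 5 of the 6 genes reached it in 70.7% of knockout and 39.1% of control cells. At least 4 of the 6 did in 88.0% of knockout and 97.9% of control cells. Among the 3 serine proteases, Elane made up 14.2% of knockout and 24.2% of control UMIs in these cells. Prtn3 made up 59.4% of knockout and 52.1% of control UMIs, and Ctsg 26.4% of knockout and 23.7% of control UMIs. By sex, Elane made up 14.1% of knockout and 20.3% of control protease UMIs in female cells, and 14.02% of knockout and 24.6% of control protease UMIs in male cells.

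Cells of similar myeloperoxidase content were then compared within the joined class. Mpo was itself lower in knockout neutrophil-like cells (log2 ratio -0.56). A range of Mpo can therefore hold a different mix of GMP-like and neutrophil-like cells in each library. At 0 to 4 thinned Mpo UMIs there were 41 knockout cells but only 2 control cells, so that range was not compared. At 20 to 79 thinned Mpo UMIs, Prtn3 averaged 42.3 UMIs in 270 knockout cells and 41.0 UMIs in 339 control cells. Ctsg averaged 18.7 UMIs in knockout and 17.8 UMIs in control cells, and Ms4a3 5.72 UMIs in knockout and 5.13 UMIs in control cells. These 3 genes were close to level in this range of Mpo. They were not at 5 to 19 Mpo UMIs (82 knockout, 54 control cells), where the log2 ratios of means were -0.56 for Prtn3, -0.57 for Ctsg and -0.60 for Ms4a3. At 20 to 79 Mpo UMIs, Elane averaged 5.78 UMIs in these knockout cells and 9.16 UMIs in the control cells, though its medians were 1.5 in the knockout and 1 in the control. At 80 Mpo UMIs or more, Elane averaged 19.2 UMIs in 75 knockout cells and 47.3 UMIs in 257 control cells. Srgn averaged 24.7 UMIs in these knockout and 41.6 UMIs in these control cells, and Nkg7 2.09 UMIs in knockout and 5.28 UMIs in control cells. Ms4a3 averaged 13.9 UMIs in knockout and 21.0 UMIs in control cells (log2 ratio of means -0.59). Prtn3 (-0.34) and Ctsg (-0.30) differed less, with 86.0 Prtn3 UMIs in knockout and 108.7 in control cells and 42.8 Ctsg UMIs in knockout and 52.6 in control cells.

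S100a8, a calcium-binding protein that accumulates as neutrophils mature, gave another way to line up neutrophil-like cells, in 3 bands with bounds set on both libraries together after the data were seen. S100a8 was itself higher in knockout neutrophil-like cells (log2 ratio 0.29). A band can therefore hold cells of different maturity in each library. In the lowest band, Elane averaged 15.4 UMIs in 26 knockout cells and 33.3 UMIs in 86 control cells, and Prtn3 69.0 UMIs in knockout and 80.2 UMIs in control cells. In the middle band, Elane averaged 24.4 UMIs in 27 knockout cells and 52.2 UMIs in 84 control cells. In the highest band, Elane averaged 20.6 UMIs in 39 knockout cells and 85.5 UMIs in 73 control cells (log2 ratio of means -2.05). Prtn3 there averaged 88.8 UMIs in knockout and 162 UMIs in control cells (-0.87). Mean Elane in control cells was higher in each band than in the one before. In knockout cells the mean was no higher in the highest band than in the middle one. The medians rose in both libraries, at 10, 19 and 22 UMIs in knockout bands and 25, 48 and 83 UMIs in control bands. The bands held few cells of each sex. In male cells, Elane in the highest band averaged 19.9 UMIs in 26 knockout cells and 85.9 UMIs in 71 control cells. From the lowest band to the highest, male knockout means were 13.2, 34.0 and 19.9 UMIs, with 8 cells in the middle band. In the middle band of female cells, Elane averaged 21.6 UMIs in 17 knockout cells and 47.9 UMIs in 12 control cells. In female cells of the lowest band it averaged 18.0 UMIs in 12 knockout cells and 19.5 UMIs in 11 control cells. Only 2 control female cells were in the highest band, and in female knockout cells Elane averaged 18.0, 21.6 and 23.8 UMIs from the lowest band to the highest. Ms4a3 and Serpinb1a were higher in the highest band than in the lowest in both libraries, with Serpinb1a at 12.5, 13.2 and 18.0 UMIs in knockout bands and 14.49, 18.5 and 22.6 UMIs in control bands.

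**Figure D4:**
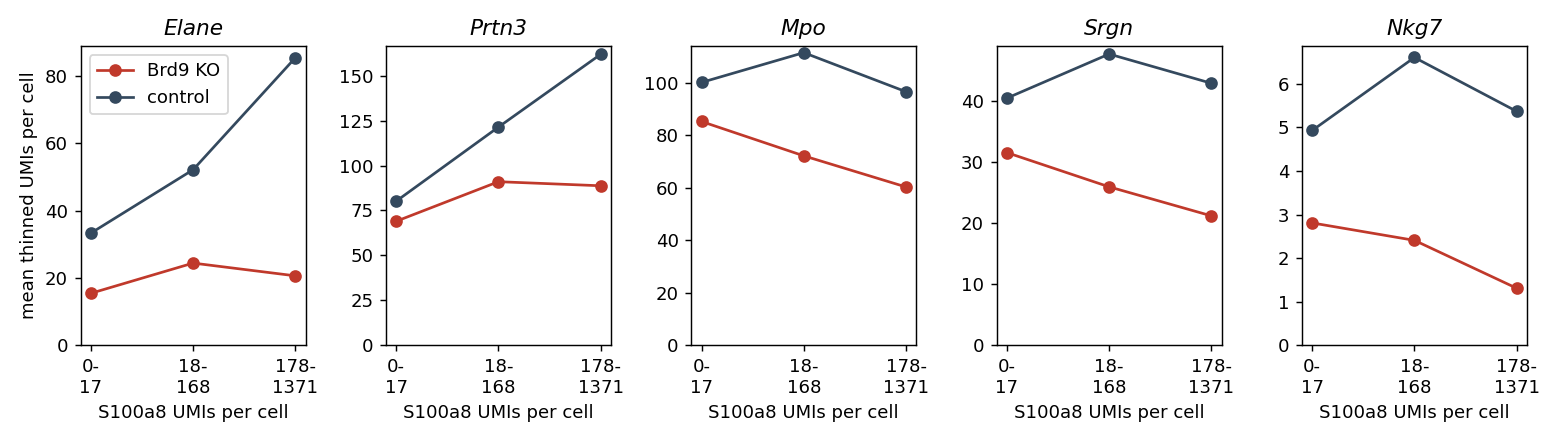
Mean thinned UMIs per neutrophil-like cell of 5 genes in 3 bands of S100a8 UMIs, Brd9 KO in red and control in blue. Elane reaches 20.6 UMIs in knockout and 85.5 UMIs in control cells of the highest band.

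Mpo, an early gene of the lineage, was also lower in classes that precede or lie beside the neutrophil branch. In the HSC/MPP-like class (stem cells and multipotent progenitors) it was at 204 CPM in knockout and 462 CPM in control cells (-1.18, -1.30 to -1.07). It was found in 79.03% of knockout and 93.4% of control cells, at 5.35 UMIs in knockout and 10.55 UMIs in control positive cells. Those values rest on 124 of 218 knockout and 121 of 224 control cells, as thinning left out the shallower ones. Before thinning, 67.4% of knockout and 80.8% of control cells had an Mpo UMI. In the lymphoid-primed-like class Mpo was at 148 CPM in knockout and 429 CPM in control cells (-1.53, -1.68 to -1.38), with 46.2% of 104 knockout and 74.2% of 124 control thinned cells positive. Prtn3 was lower with it, at -0.64 and -0.55 in these classes. Of 5 genes measured in each, Mpo and Prtn3 were the 2 lower by more than 0.5, where 0.623% of genes were in the HSC/MPP-like class and 1.38% in the lymphoid-primed-like class. Erythroid markers summed to 509 CPM in knockout and 977 CPM in control HSC/MPP-like cells, with 18 of 20 lower. Monocyte-dendritic markers summed to 305 CPM in knockout and 599.5 CPM in control lymphoid-primed-like cells, with 11 of 12 lower. No marker of either list was at 0. HSC/MPP markers summed to 420 CPM in knockout and 243 CPM in control lymphoid-primed-like cells, with 9 of 10 higher and Pdzk1ip1 at 0. Their part in the result was not tested.

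The monocyte-dendritic-like class, of 176 knockout and 282 control cells, did not show the same pattern. None of its 9 measured genes was lower by more than 0.5, where 0.952% of 3572 genes were, and the median was -0.17. Prtn3 was at 2702 CPM in knockout and 2301 CPM in control cells (0.23, 0.20 to 0.26), and Ms4a3 at 130 CPM in knockout and 110 CPM in control cells (0.25, 0.11 to 0.38). Elane was at 211 CPM in knockout and 286 CPM in control cells (-0.43). Neutrophil markers summed to 2263 CPM in knockout and 551 CPM in control cells of this class, with 8 of the 11 higher in the knockout and Retnlg and Mmp9 at 0, and 1 cell held 30.2% of knockout and 29.1% of control S100a8 UMIs. Their part in the result was not tested.

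The mast-basophil-like class, of 239 knockout and 168 control cells, held high Mpo and Srgn with little Elane. Mpo was at 1096 CPM in knockout and 1333 CPM in control cells (-0.28), Srgn at 1314 CPM in knockout and 1565 CPM in control cells (-0.25), and Elane at 7.95 CPM in knockout and 6.66 CPM in control cells. Ctsg was at 50.1 CPM in knockout and 79.8 CPM in control cells (-0.67), with 24.4% of 168 knockout and 44.6% of 130 control thinned cells positive. Nkg7 was at 207 CPM in knockout and 185 CPM in control cells (0.16, 0.03 to 0.29). Of 9 genes measured, 2 were lower by more than 0.5, where 1.71% of genes were. Erythroid markers summed to 455 CPM in knockout and 761 CPM in control cells of this class, with 19 of 20 lower and none at 0. Their part in the result was not tested.

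Embryo sex was uneven between the libraries, so the joined class was split by the sex of its cells. In female cells (276 knockout, 113 control) Elane was at 303 CPM in knockout and 697 CPM in control cells (-1.20), and in male cells (210 knockout, 580 control) at 357 CPM in knockout and 1269 CPM in control cells (-1.83). The other 8 genes with a measured level had ratios between -0.83 and -0.22 in female cells and between -1.02 and -0.06 in male cells, all below 0. Within the control library alone, Elane was lower in female than in male cells of the class by 0.87 on the log2 scale. That gap lies inside 1 genotype, and the cells of each sex come from different embryos. The mix of GMP-like and neutrophil-like cells also differed by sex, and in GMP-like cells alone the order was reversed. There Elane was at -0.92 in female cells (227 knockout, 83 control) and -0.51 in male cells (152 knockout, 330 control). Ratios of the other genes were also lower in female GMP-like cells, Ctsc excepted. In control GMP-like cells, Elane was at 299 CPM in female and 233 CPM in male cells.

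**Figure D5:**
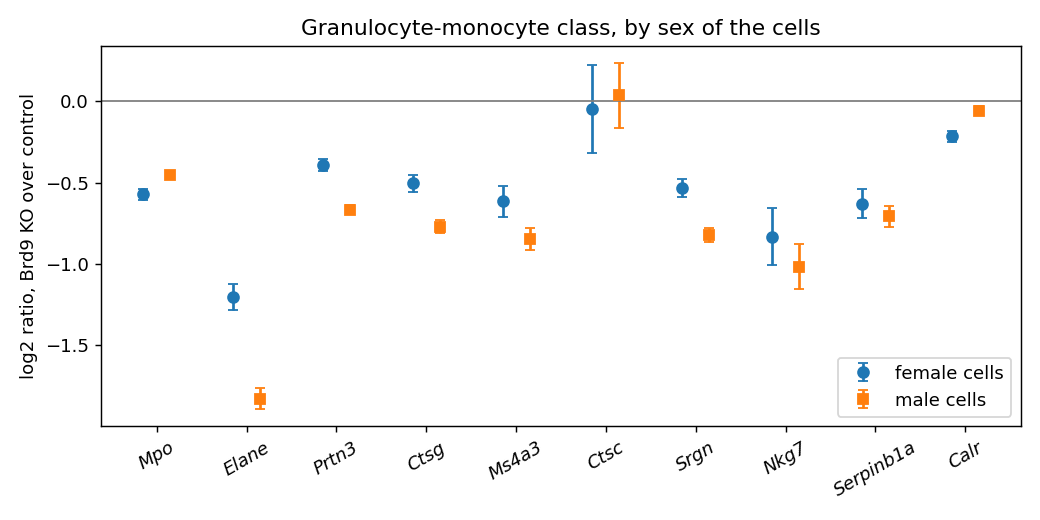
Log2 ratio of CPM, Brd9 KO over control, in the joined granulocyte-monocyte class for female cells (circles) and male cells (squares), with exact 95% counting intervals. Elane is lowest in both, at -1.20 in female and -1.83 in male cells, and the intervals of Ctsc span 0.

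Some knockout cells still held Brd9 UMIs. Which part of Brd9 is floxed is not stated in the labels, so such a UMI need not mark an undeleted cell. Thinned knockout cells of the joined class with a Brd9 UMI (89 cells) averaged 6.24 Elane UMIs, and those without one (379 cells) 6.37 UMIs. In control cells the means were 27.0 UMIs with a Brd9 UMI (297 cells) and 20.6 UMIs without (355 cells). These joined means mix the clusters. In neutrophil-like control cells the means were 55.7 UMIs with and 55.3 UMIs without, and in GMP-like control cells 4.92 and 4.15 UMIs. For the knockout they were 15.3 UMIs with (21 cells) and 21.7 UMIs without (71 cells) in neutrophil-like cells. In GMP-like knockout cells they were 3.43 and 2.83 UMIs.

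Apart from the member Prtn3 beside Elane (-0.89), neighbours of Elane, Mpo and Ctsg that reached 20 CPM over all cells had ratios near 0. Within 100 kb of Elane, Ptbp1 (0.07), R3hdm4 (-0.02), Arid3a (-0.08), Wdr18 (0.05) and Tmem259 (0.05) were close to level over the library, as were Supt4a (-0.04) and Mir142hg (-0.11) beside Mpo. No other measured gene lay within 100 kb of Ctsg. In the joined class, Palm and Plppr3 near Elane also reached 50 CPM in the control. Palm was at 45.5 CPM in knockout and 64.4 CPM in control cells of the class (-0.50), and Plppr3, which overlaps Prtn3 on the other strand, at 37.5 CPM in knockout and 50.9 CPM in control cells (-0.44). Prss57, a further serine protease of these granules that ends 95286 bases before Elane, was named after its values were seen and was under 20 CPM over all cells. It was at 24.1 CPM in knockout and 85.6 CPM in control cells of the joined class (-1.83), and at 87.3 CPM in knockout and 215 CPM in control neutrophil-like cells (-1.30).

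Other gene lists of the granule programme were set beside the members, with the same 20 CPM minimum over all cells. Of 14 other azurophil and lysosomal proteins, 12 were lower and none by more than 0.5, with Ctsb and Psap lowest (-0.14 and -0.12) and Cd63 and Man2b1 highest (0.01 and 0.03). Of 3 secondary and tertiary granule genes, Camp, an antimicrobial peptide, and Hp, haptoglobin, were at -3.61 and -2.13 and Cyba, an oxidase subunit, at 0.03; 1 cell held 29.7% of knockout Camp UMIs. Of 4 protease inhibitors, Stfa1 (-0.62) was the 1 lower beyond 0.5, with Cst3 at -0.16, Cstb at 0.05 and Serpinb6a at 0.25. Of 8 myeloid transcription factors, Meis1 was at 0.88 and Cux1 at 0.22, and Spi1, which encodes PU.1, at -0.41 and Myb at -0.06. Listed factors under the minimum included Gfi1 (-1.51), Irf8 (-0.77), Cebpd (-0.62) and Cebpe (-0.58), while Rara (0.21) and Egr1 (0.14) were higher. These were named after their values were seen.

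Over all cells, the machinery that folds, modifies and sorts granule proteins was nearly level among genes that reached the minimum. The joined class was 7.38% of knockout and 10.2% of control cells, so these sums come mostly from other cells. Beyond 0.5, 0.899% of 6226 genes were lower over all cells and 0.418% higher. Under the minimum, Chst15 (-1.30) and Csf3r (-0.64) were lower and Chsy3 (0.83) and Chpf (0.60) higher, all named after their values were seen. All 20 endoplasmic reticulum folding genes were within 0.5, with a median of -0.04 and Pdia6 and Canx lowest (-0.15 and -0.10) and Sil1 and Uggt1 highest (0.10 and 0.06). Of 5 enzymes that build chondroitin sulphate, the chain type carried by serglycin, the extremes were B3gat3 (-0.12), Chst11 (-0.02), Chsy1 and Xylt1 (0.10 each). Of 12 sorting and congenital neutropenia genes, they were Ap3s1 (-0.22), G6pc3 (-0.20), Ap3m1 (0.10) and Unc13d (0.13).

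The genes most like the sum of the 7 members other than Calr, Srgn and Ctsc across the 6860 control cells were Plac8 (Pearson r 0.905), Anxa3, Emb, Spi1, Ramp1, Atp8b4, Tyrobp, Limd2, Tmsb4x and Fcer1g (0.839). The cells share a library and depth, so this is a description. Their library log2 ratios ran from -0.74 for Plac8 and -0.67 for Anxa3 through -0.41 for Spi1 to 0.07 for Tmsb4x and 0.18 for Fcer1g. None was as low as Elane.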

How the data were processed

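The authors deposited whole-number UMI counts per gene and barcode for 2 libraries, made with Cell Ranger 7.2.0 and mm10, per the submitters' processing notes. Intron and strand settings are not given in the sources used here. Coordinates are from GENCODE M21 on the same build. The members, lists and classes were chosen with earlier results of these data known.

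Cells with at least 1000 genes, 2000 UMIs and at most 10% mitochondrial UMIs were kept (7001 knockout, 7100 control), and Scrublet in scanpy 1.11.5 removed 244 knockout and 240 control doublets. Clustering used 3000 variable genes without the members and other granule genes, 30 components, 15 neighbours and Leiden resolution 1, giving 25 clusters. A cluster was named with at least 2 markers of a type among its top 30 genes by fold, at least 3 detected, and no other type with more markers among its top 10 genes. Names are rebuilt, and 3794 knockout and 2614 control cells stayed unnamed. UMIs were summed per library and class as CPM, with conditional exact intervals for ratios, tested on simulated data. Female cells had at least 3 Xist UMIs and at most 1 Y-linked UMI. Cells with at most 1 Xist UMI were called male, with no Y-linked UMI required, so a female cell with little Xist could be counted as male. Mpo overlaps Gm11505, Prtn3 overlaps Plppr3 and Ctsc overlaps Gm26522 on the opposite strand. Named genes were all members, the 2 highest and 2 lowest of each list, the 10 most alike, neighbours within 100 kb, Brd9 and Alb. Alternatives covered filters, doublets, scaling, clustering, sex and class weights.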

Additional observations from a re-analysis of the deposited data

Results flagged for a closer look

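Some genes were higher in the knockout in 1 class and lower in another, each with a counting interval away from 0. Prtn3 had a log2 ratio of 0.23 in the monocyte-dendritic-like class and -0.64 in the HSC/MPP-like class. Ms4a3 had 0.25 in the monocyte-dendritic-like class and -0.48 in the GMP-like cluster. Nkg7 had 0.16 in the mast-basophil-like class and -1.31 in the neutrophil-like cluster. Ctsc had 0.30 in the mast-basophil-like class and -0.24 in the monocyte-dendritic-like class. With 1 library per group these differences were not tested.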

How the results depend on the processing

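No paired analysis was possible because each group had 1 library. The library median of -0.89 became -0.92 with the median of all genes set to 0, -0.60 in female cells, -0.74 in male cells and -0.37, with 1 gene lower beyond 0.5, with knockout classes weighted to control shares. In the joined granulocyte-monocyte class, the median of -0.76 became -0.54 (5 genes) at resolution 0.6 and -0.73 at resolution 1.5. It became -0.58 when clustering left out the members only and -0.73 when clustering kept all granule genes. With knockout cells assigned to control clusters it was -0.64, and in female cells -0.57. Both settings that gave -0.73 held fewer cells than the main one (499 knockout, 702 control). These were 272 knockout and 406 control cells at resolution 1.5, and 266 knockout and 395 control cells with granule genes kept. There, clusters of 811 and 809 cells whose best match was GMP stayed unnamed and were left out. Alternatives chosen after seeing the data gave -0.34 (2 genes) for the GMP-like cluster, -0.56 for the neutrophil-like cluster (-0.31 in female cells, where Ms4a3 turned to 0.080, and -0.50 in male cells) and -0.43 (3 genes) at the control mix of both; without the neutrophil-like cluster the library median was -0.52 and Nkg7 turned to 0.074. The cause was not tested. Elane stayed below 0 in all alternatives run, from -2.11 to -1.01 over the library and from -1.84 to -0.62 in the class. The other 40 medians and counts stayed within 1.5 times or inside their counting interval. Of the values of single genes under alternatives, 159 stayed inside that interval and 139 left it (with Ctsc, near 0 in the class, at 0.23 in the neutrophil-like cluster). The other 2, with a main interval clear of 0, changed sign, as given. Sign changes where that interval spanned 0 were not counted among the 2. Ctsc in the class was below 0 in 5 of 14 alternatives. Depth limits Elane and Ms4a3 outside the myeloid classes, and 1 library per group limits every comparison.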

Other observations

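Within the neutrophil-like cluster, genes of later granules also differed. Camp was at 259 CPM in knockout and 1650 CPM in control cells (-2.67), with 38.5% of its knockout UMIs in 1 cell, and Fcnb, a lectin of neutrophil granules, at 163 CPM in knockout and 416 CPM in control cells (-1.35). S100a8 was at 11722 CPM in knockout and 9598 CPM in control cells (0.29), and Cebpe, a transcription factor of late granulocyte development, at 544 CPM in knockout and 440 CPM in control cells (0.31). Gfi1, a repressor needed for neutrophil development, was at 9.87 CPM in knockout and 26.8 CPM in control GMP-like cells (-1.44) and at 66.5 CPM in knockout and 96.0 CPM in control neutrophil-like cells (-0.53). Meis1, a stem cell transcription factor, was at 156 CPM in knockout and 98.9 CPM in control GMP-like cells (0.66). These genes were named after their values were seen.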
